A study of Homo sapiens with 4 samples.

Results

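FAM20C held 32 of the 18789 predicted N6-methyladenosine (m6A) sites listed for C643 cells, and 13 of them lay in an intron, more than in any other gene of the list, although at a score of at least 0.7 it had 3, as many as BAIAP2 and BLOC1S3. The members are the listed positions within the GENCODE gene FAM20C (ENSG00000177706.9) on the plus strand of chromosome 7 (GRCh38, 192571 to 260772). C643 is a human cell line that came from an anaplastic thyroid carcinoma. It was grown untreated as wild type (WT), in 1 group of 3 biological replicates and 4 libraries, since replicate 1 had 2 technical libraries. In miCLIP2, fragments of DNase-treated, polyadenylated RNA are crosslinked to an antibody against m6A, and the ends of truncated cDNAs mark the crosslinked base. The classifier m6Aboost then gave each peak at an A a prediction score, a fraction that ranks confidence and is no methylation level, and the lowest score in the list was 0.500018. The deposited list pools the replicates and holds no read counts, so read depth is unknown for every site, and a spread between replicates cannot be given. The gene was chosen by the number of its listed sites in introns, so that number and the place of the sites are a description, with no test. Nearby sites share transcripts and partly the same reads and are not replicates. No listed site lay before FAM20C on the chromosome, and the next one after it was 237434 nt beyond its end.

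FAM20C encodes a kinase of the Golgi apparatus that phosphorylates serines of secreted proteins, among them proteins of bone and tooth matrix, and loss of its function causes Raine syndrome, a disorder with abnormal bone mineral. The mark m6A is written on RNA in the nucleus by a complex around METTL3 and METTL14, mostly within the motif DRACH, in which D is any base but C, R is a purine and H is any base but G. Much of the m6A of mature mRNA is carried by the last exon. Introns are spliced out of most transcripts before export to the cytoplasm.

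Of the 32 sites, 13 lay in an intron and in no annotated exon of the gene, 1 lay in an exon of the noncoding isoform FAM20C-202, 4 lay in the coding sequence (CDS) and 14 in the 3' UTR. Intronic sites made up 0.415% of the whole list (78 sites), and the 13 of FAM20C were 16.7% of them. With other choices of host transcript, or without sites in an exon of any gene on the strand, the whole list held 67 to 79 intronic sites, of which 13 were in FAM20C each time. For FAM20C this count was fixed in advance, since its coding isoform is also its canonical and its longest one. No other gene overlaps it on the plus strand. Exons are those of GENCODE release 44, and exons of predicted RefSeq models of FAM20C were not analysed here. The windows of 21 nt around the intronic sites and the FAM20C-202 site are shown because they carry this pattern, with the listed adenosine in the middle of the pentamer in capitals. They were read from the plus strand of GRCh38, 5′ to 3′, and each name gives the distance from the 5' splice site, with the first base of the intron as 1.
155 nt into intron 2 (chr7:195877-195897): gcgaggagGGACAgagggctc
377 nt into intron 2 (chr7:196099-196119): tgtgcatgGAACTctcctgct
573 nt into intron 2 (chr7:196295-196315): atctccagGTACTttgggatc
1495 nt into intron 2, in the FAM20C-202 exon (chr7:197217-197237): gcctctgtGGACCtgacagcc
2425 nt into intron 2 (chr7:198147-198167): ccgtccaaGGACAggctggct
2474 nt into intron 2 (chr7:198196-198216): gcctgcaaGGACGatgggcag
4167 nt into intron 2 (chr7:199889-199909): cagcttctGGACTgaaataca
4179 nt into intron 2 (chr7:199901-199921): tgaaatacAGACTtcataatt
4213 nt into intron 2 (chr7:199935-199955): tgggacaaAGACTgtggttgg
4251 nt into intron 2 (chr7:199973-199993): aagaaaaaTGACTctgcagga
4325 nt into intron 2 (chr7:200047-200067): agaatccaGGACTaaccagcg
4638 nt into intron 2 (chr7:200360-200380): tgaaagaaGGACAatgaccac
4658 nt into intron 2 (chr7:200380-200400): cctgcaaaGGACGatttcaag
4808 nt into intron 2 (chr7:200530-200550): ctgagcagAGACAgcagcccc

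The 3 exonic sites with the highest scores are shown for comparison, named by their distance from the first base of the stop codon. They share the GGAC core with 7 of the 13 intronic sites.
164 nt after the stop codon (chr7:260132-260152): gtctcataGGACAcattttgt
649 nt after the stop codon (chr7:260617-260637): ttggctgtGGACGgttggtgc
637 nt after the stop codon (chr7:260605-260625): cccacctcGGACTtggctgtg

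The intronic sites were confined to intron 2 of the 9 introns of FAM20C-201, the isoform of 10 exons that encodes the protein. Intron 2 runs from 195733 to 208897 and is 13165 nt long, which is 20.2% of the intronic length of the gene. The first intronic site lay 155 nt after the 5' splice site and the last one 4808 nt after it, so that the sites ended at 36.5% of the intron. The remaining 8357 nt up to exon 3 held no site. The other 8 introns add up to 51861 nt and held no site either, among them intron 3, which at 37438 nt is the longest of the gene.

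**Figure D1:**
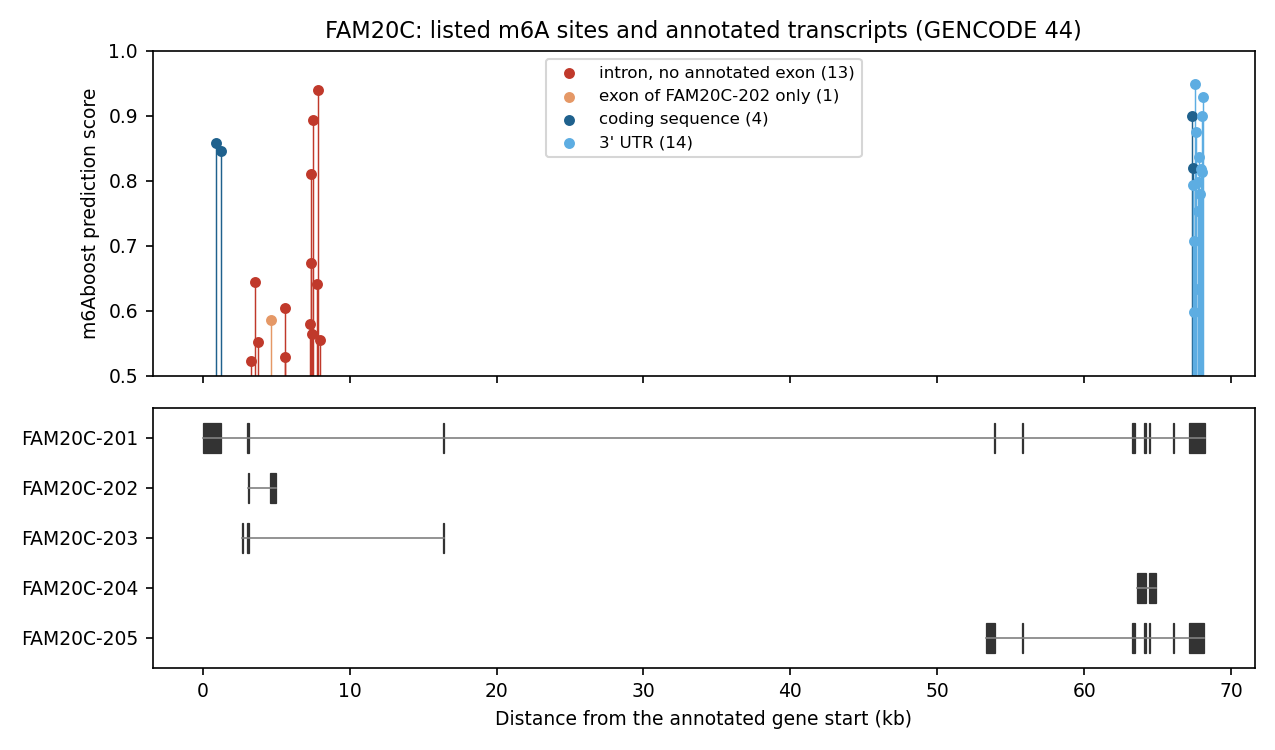
Prediction score of each of the 32 listed sites (top, points on stems) and the exons (boxes) and introns (lines) of the 5 annotated FAM20C transcripts (bottom), against distance from the gene start in kb. The sites form a small pair in exon 1, a group in the early part of intron 2 and a dense group in exon 10, with no site between intron 2 and exon 10.

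Within intron 2 the sites fell into loose and dense parts. The first 5 intronic sites were spread over the stretch from 155 to 2474 nt, with scores of 0.522, 0.645, 0.552, 0.604 and 0.529 in order of position. The FAM20C-202 site at 1495 nt, with a score of 0.586, lay among them. After a gap of 1693 nt, the other 8 sites lay within 642 nt, between 4167 and 4808 nt from the 5' splice site. Their scores in order of position were 0.579, 0.811, 0.673, 0.564, 0.893, 0.640, 0.939 and 0.555. All 3 intronic scores of at least 0.7 were in this dense part, at 4179, 4325 and 4658 nt, and none of the 5 earlier sites reached it.

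**Figure D2:**
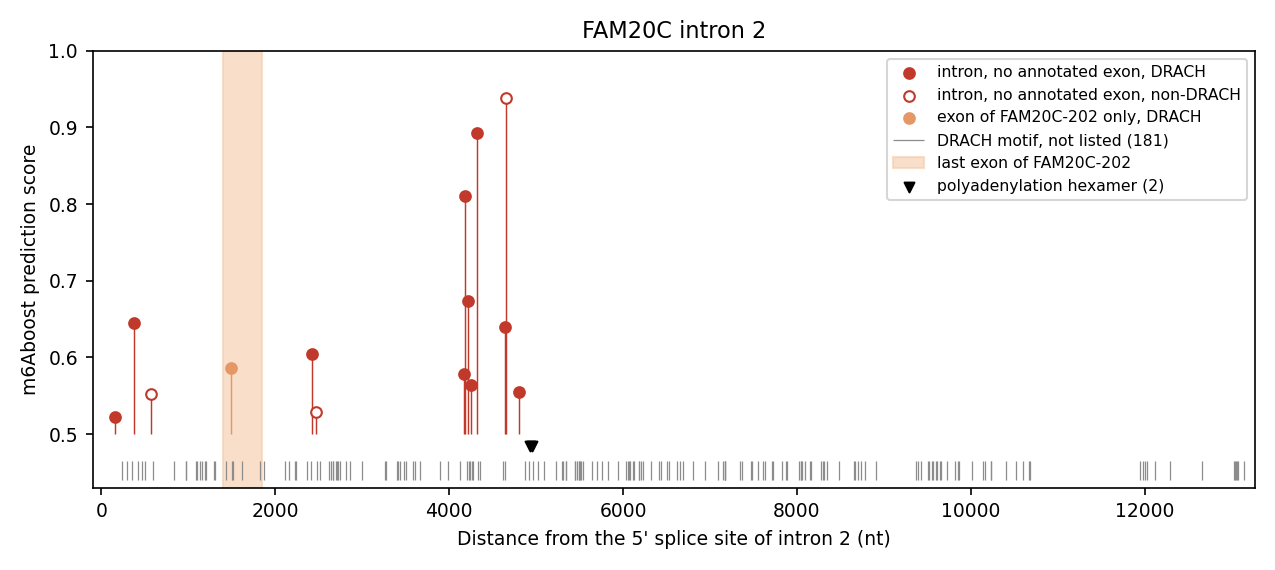
Prediction score of the sites in intron 2 (points on stems; filled for DRACH, open for non-DRACH) against the distance from the 5' splice site in nt. Grey ticks mark the 181 DRACH motifs without a listed site, the shaded band is the last exon of FAM20C-202, and triangles mark the 2 polyadenylation hexamers, which follow the last site at 4808 nt.

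DRACH motifs were available along the whole intron. Of the 192 DRACH motifs in intron 2, 11 were listed, counting the one in the FAM20C-202 exon. Between the first and the last intronic site 11 of 76 motifs were listed (14.5%, 95% Wilson interval 8.28 to 24.1), and the 116 motifs after the last site are not listed by definition. Both stretches were bounded by the sites themselves. In the dense part of 642 nt, bounded in the same way, 7 of 16 motifs were listed (43.8%, 23.1 to 66.8). The DRACH motifs of the introns without sites numbered 719. Over all introns of FAM20C outside annotated exons, 10 of 886 DRACH motifs were listed (1.13%, 0.614 to 2.07), where 0.00386% were listed over the introns of all host transcripts of the list. In exons of FAM20C-201 14 of 59 motifs were listed (23.7%, 14.7 to 35.97), against 7.30% in exons of all host transcripts. These intervals treat motifs as independent draws and cover no variation between cultures. The gene was chosen for its listed intronic sites, so its intronic share set beside that of all introns is a description and no test. The shares over all host transcripts include FAM20C itself. A motif that is not listed may be unmodified, may have had too few reads or may have been scored too low for the list, which cannot be told apart here.

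The annotation around the intronic sites was then compared isoform by isoform. FAM20C-202, a noncoding isoform of 2 exons, starts inside exon 2 and ends in a last exon of 446 nt that lies 1398 to 1843 nt into intron 2 (197130 to 197575). It held 1 listed site at 197227, where 1 of 6 DRACH motifs was listed. Of the 13 intronic sites, 3 lay before this exon, inside the single intron of FAM20C-202, and 10 lay beyond its annotated end. FAM20C-203, a noncoding isoform of 3 exons, has exons 2 and 3 in common with the coding isoform and so treats intron 2 as an intron too. The retained-intron isoforms FAM20C-204 and FAM20C-205 begin far downstream, at 256195 and 245895, and reach none of the intronic sites. FAM20C-205 contains most of exon 10 and all 16 sites of that exon, and the intronic sequence retained in either of them held no site.

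No overlapping gene covered the intronic sites on either strand. A noncoding antisense gene, ENSG00000240093, runs on the minus strand from 182935 to 194180 and overlaps the first 1610 nt of FAM20C. The 2 sites in exon 1 lie within its span and 0 of them in its exons, and no site was listed on its strand. The second overlapping gene, ENSG00000249852, is a minus-strand entry of unresolved type within intron 3 (227554 to 229557) that covered no site. Over the whole span of FAM20C the minus strand held 0 listed sites. The windows were also compared with the rest of the genome, since reads were kept only when they mapped uniquely. All 32 windows of 21 nt occurred once in GRCh38 with alternate loci left out, and so did all 32 windows of 51 nt. Only exact matches were counted, so near copies were not looked for, and a list from uniquely mapped reads already favours such windows. The intronic windows were not copies of each other, and the closest of their 78 pairs matched at 13 of 21 bases. No 21-nt word occurred repeatedly between the first and the last intronic site.

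The place where the intronic sites ended was examined for the polyadenylation hexamer AATAAA on the plus strand, a search chosen after the positions had been seen. Intron 2 held 2 such hexamers, 4929 and 4958 nt from the 5' splice site. The first began 121 nt after the last intronic site. Of 126 adjoining windows of 500 nt in the introns of FAM20C, 5 held an AATAAA (3.97%). The variant ATTAAA occurred 3 times in intron 2 and 0 times after the last site. In exon 10, the AATAAA began 98 nt after the last listed site and 47 nt before the end of the gene, where FAM20C-201 ends. FAM20C-205 ends earlier in this exon, at 260745. Both hexamers are shown in capitals within 21 nt, the intronic one first.
AATAAA in intron 2 (chr7:200653-200673): tctttcaaAATAAAaggggcc
AATAAA in exon 10 (chr7:260717-260737): aaaagtgcAATAAAggtacag
A match of these letters does not show that the site is used. No transcript end is annotated near the intronic hexamer in GENCODE release 44, and 3' ends were not measured. Intron 2 held 0 runs of 10 or more A, and its longest run of A had 6.

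The exonic sites lay in exon 1 and exon 10. The other 8 exons, of 60 to 181 nt, held 24 DRACH motifs and no site. Exon 1 held 2 sites in the CDS, both at GGACT, at 193477 with a score of 0.857 and at 193801 with a score of 0.846. The latter is the fourth base from the end of the exon and the only exonic site of the gene within 100 nt of an exon junction. Exon 1 had a GC content of 78.8%, and 2 of its 16 DRACH motifs were listed.

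Exon 10 held 16 sites within 727 nt, from 77 nt before to 649 nt after the first base of the stop codon. The 2 coding sites of this exon, at 259901 and 259949, had scores of 0.899 and 0.820. In the 3' UTR, 10 of 15 DRACH motifs were listed (66.7%, 41.7 to 84.8), together with 4 adenosines outside DRACH. The median score in the 3' UTR was 0.806, and the lowest and highest were 0.598 and 0.948. The highest score of the gene, 0.948, was at 260142, a GGACA 164 nt after the stop codon, and the lowest exonic score, 0.598, was at 260014, an AGACA. Of the exonic sites, 6 were no more than 200 nt away from the stop codon. All 4 coding sites of the gene fell on the second base of a GAC codon, namely codons 93, 201, 559 and 575 of 584.

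**Figure D3:**
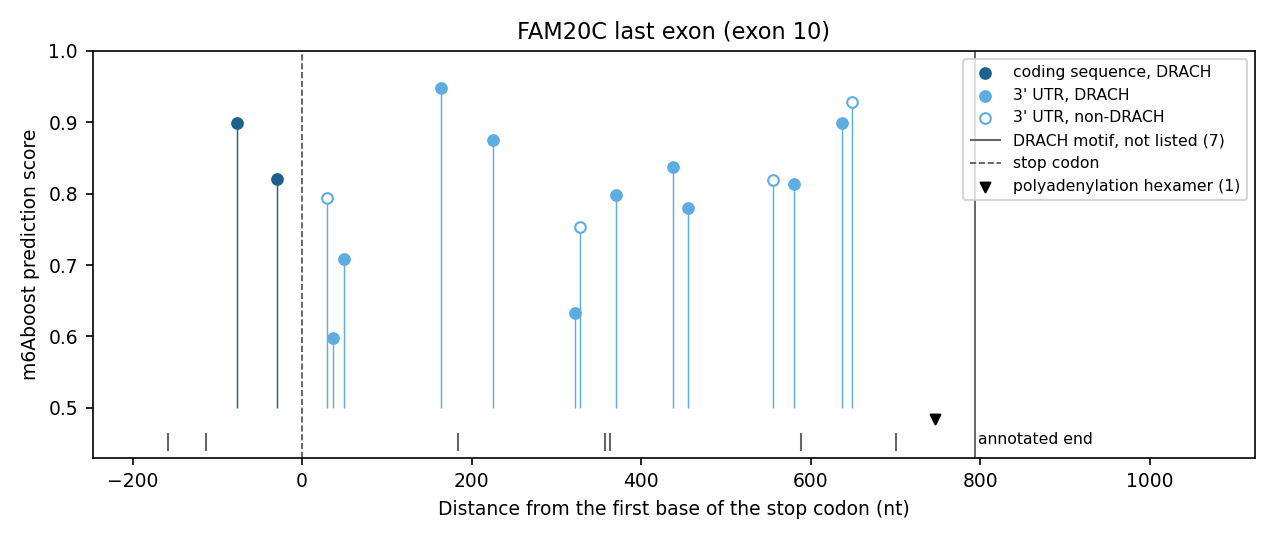
Prediction score of the 16 sites in exon 10 (points on stems; filled for DRACH, open for non-DRACH) against the distance from the first base of the stop codon in nt. Ticks mark the 7 DRACH motifs without a listed site, and the triangle marks the AATAAA 98 nt after the last site.

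The share of sites at DRACH was similar in introns and exons, with wide intervals. DRACH was present at 10 of 13 intronic sites (76.9%, 49.7 to 91.8) and at 14 of 18 exonic sites (77.8%, 54.8 to 91.0), against 88.7% of the whole list. The intronic non-DRACH sites were GGACG at 2474 and 4658 nt, and GTACT at 573 nt. The exonic non-DRACH sites were GGACG at 3 positions and AGACG at 1, all in the 3' UTR. The GGAC core was present at 7 of 13 intronic and 14 of 18 exonic sites, and GGACT at 2 of 13 and 4 of 18. Among intronic sites GGACA was the most frequent pentamer with 3 sites, and AGACT had 2. The GC content of the 101 nt around each site had a median of 54.5% for intronic sites (44.6 to 70.3) and 67.3% for exonic sites (34.7 to 73.3). These ranges overlap, and with sites of 1 gene no test of the difference was made.

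The scores of the intronic sites were mostly lower than those of the exonic sites. The intronic median was 0.604, over a range of 0.522 to 0.939 (SD 0.139, n = 13 sites). The exonic median was 0.819, over a range of 0.598 to 0.948 (SD 0.0935, n = 18 sites). The intronic minus the exonic median was -0.216, on the scale of the score. The ranges overlapped: 2 intronic scores were above the exonic median and 1 exonic score was below the intronic median. At a score of at least 0.7 there were 3 of 13 intronic and 16 of 18 exonic sites, against 28 of 65 intronic sites of other genes (43.1%) and 63.2% of the exonic sites of all genes. With DRACH sites alone the difference was -0.207. Inputs of the model were the transcript region, the 21 nt around the site, the peak signal relative to its gene and C-to-T transitions, so an intronic site enters it without a CDS or UTR label. The part of these inputs in the scores was not tested.

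To compare scores at the same sequence, each score was ranked among all listed sites with the same pentamer. Of the 13 intronic sites 10 were below the median of their pentamer, and the median percentile was 13.2. Of the 18 exonic sites 16 were above it, with a median percentile of 75.2. The 2 exonic exceptions were 260014 (AGACA) and 260027 (GGACC), both in the 3' UTR. The intronic exceptions were 199911 (AGACT, percentile 61.7), 200057 (GGACT, 74.2) and 200390 (GGACG, 99.0), all in the dense part. The GGACG at 200390, 4658 nt into the intron, thus had a higher score than nearly all of the 735 listed GGACG sites, whose median was 0.716. Of the 65 intronic sites of other genes, 19 (29.2%) scored above the median of their pentamer. The median score of the 65 was 0.667, and some of them lay in an exon of another gene on the strand. Of all exonic sites of the list 50.2% scored above the median of their pentamer, and their median score was 0.755. The ranking itself largely sets that share, since these exonic sites are 17818 of the 18789 listed.

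**Figure D4:**
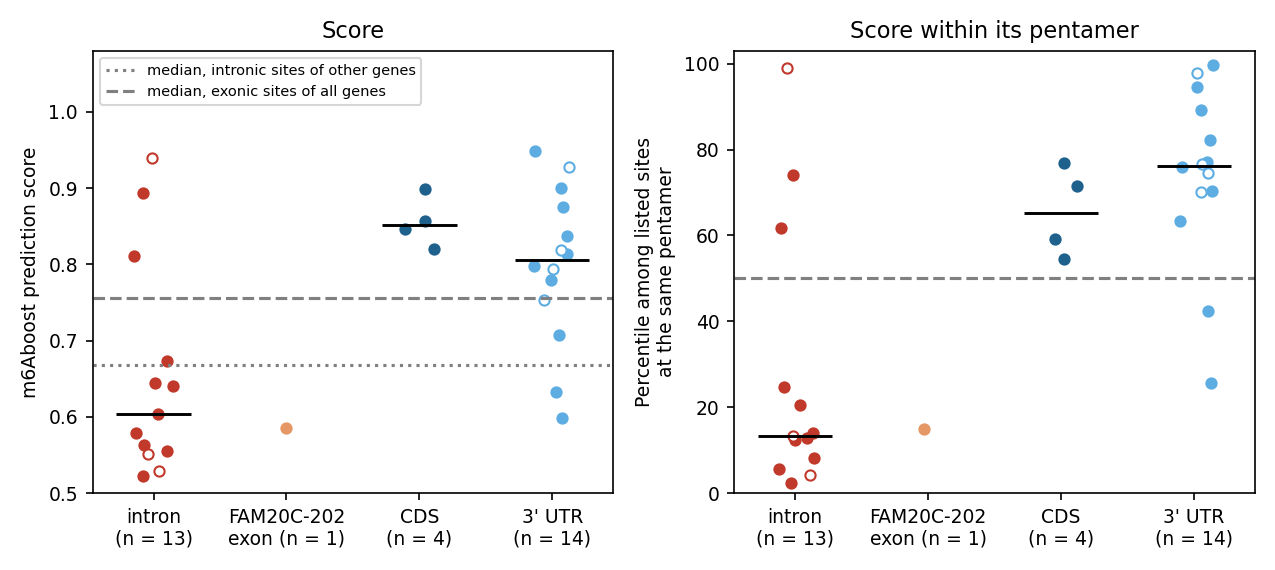
Prediction score (left) and percentile of the score among listed sites with the same pentamer (right) for the FAM20C sites by region. Each point is a site, filled for DRACH and open for non-DRACH, bars are medians, dotted and dashed lines are medians of other genes' intronic sites and of all exonic sites (left) and the 50th percentile (right); most intronic points lie low, with 3 above the line.

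Listed sites were close together in the last exon and in the dense part of intron 2. The nearest listed site was 12 to 222 nt away from an intronic site, with a median of 49.0 nt, and 8 of 13 had a neighbour within 50 nt. This median was 196 nt for the first 5 intronic sites and 27.0 nt for the 8 of the dense part. Over both parts it was 122 nt among DRACH sites alone and 146 nt among sites with a score of at least 0.7. For exonic sites the distance was 6 to 324 nt with a median of 21 nt, and 14 of 18 had a neighbour within 50 nt. The shortest intronic distance was 12 nt, between 199899 and 199911. In exon 10, 260008 and 260014 as well as 260300 and 260306 were 6 nt apart. Windows of the classifier overlap at such distances, and neighbouring sites may share reads.

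Few other genes had several intronic sites. Of the 3777 host genes in the list, 35 had at least 1, and 20 of these had exactly 1. The other 34 genes held 65 intronic sites in all. By the number of intronic sites, the genes most like FAM20C were BAIAP2 with 6, COL6A2, FBXO17 and PCBP3 with 5 each, and PLXND1 with 3. PLXND1 was 1 of 4 genes with 3 and was taken for its number of sites in all. FAM20C ranked 4 among the host genes by sites in all, with 32. BAIAP2 had 10 in all, COL6A2 24, FBXO17 14, PCBP3 5 and PLXND1 18. As a share of the sites of the gene, intronic sites were thus more frequent in PCBP3 and BAIAP2 than in FAM20C. BAIAP2 encodes a scaffold of the actin cytoskeleton, and its 6 sites lay within 787 nt of intron 13 of 13, at scores from 0.576 to 0.935. COL6A2, a collagen VI chain, had its 5 in intron 27 of 27 with a median score of 0.557. FBXO17 had its sites in intron 5 of 5, PLXND1, a semaphorin receptor, in intron 35 of 35, and PCBP3, an RNA-binding protein, in intron 5 of 17. In the host transcript of each of the 6 genes the intronic sites were in a single intron, which was the last in 4 of them, and FAM20C had its sites in intron 2 of 9. Among the 6 genes the median intronic score was lowest in COL6A2 and highest in BAIAP2 (0.663), and that of FAM20C (0.604) was the second lowest. An AATAAA followed the last intronic site within 500 nt in FAM20C, BAIAP2 (285 nt), FBXO17 (82 nt) and PCBP3 (468 nt) and not in COL6A2 or PLXND1. The last site lay at 95.2% of an intron of 5412 nt in COL6A2 and at 72.9% of an intron of 188 nt in PLXND1. In both, the intron ended less than 500 nt later, so these 2 genes are not comparable with the others. Windows of 500 nt with an AATAAA made up 5.96% of the introns of BAIAP2, 26.2% of those of FBXO17, 21.4% of those of PCBP3, 20.8% of those of COL6A2 and 13.5% of those of PLXND1.

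**Figure D5:**
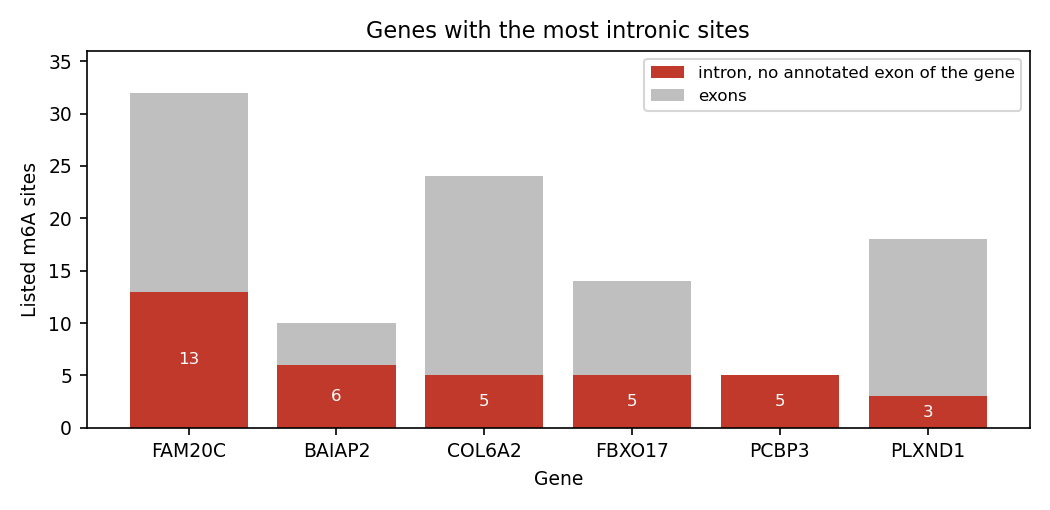
Number of listed sites in introns (red, with the number) and in exons (grey) of the 6 genes with the most intronic sites. FAM20C has 13 intronic sites, and the next gene, BAIAP2, has 6.

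The m6A sites of related genes were counted in the same list. Of 12 other kinases and kinase-like proteins of the secretory pathway, 2 held a site (16.7%), against 18.7% of all protein-coding genes. FJX1, which encodes the human relative of the Golgi kinase four-jointed, held 15 sites, of which 10 were in the 3' UTR and 5 coding, with scores from 0.519 to 0.935. PKDCC, which encodes a secreted tyrosine kinase, held 1 site in the 3' UTR with a score of 0.729. FAM20A, a pseudokinase that binds FAM20C, and FAM20B, a xylose kinase of proteoglycan synthesis, were without a listed site. Of 19 secreted or luminal proteins known as substrates of FAM20C, 4 held a site (21.1%). STIM1, the calcium sensor of the endoplasmic reticulum, held 9 sites, the protein disulfide isomerase P4HB 8, the Golgi calcium-binding protein SDF4 6 and the growth factor BMP4 3. Neither list held an intronic site, and over all 19680 protein-coding genes 33 did. Whether the genes without a site were expressed in C643 was not analysed here.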

How the data were processed

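Per the labels and methods, the authors aligned miCLIP2 reads with STAR (2.7.3a) to GRCh38.p12, kept unique reads, removed duplicates with UMI-tools (1.0.0), called peaks with PureCLIP on each replicate, kept peaks found in at least 2 replicates and classified peaks at A with m6Aboost. The deposited score is a fraction that ranks confidence and is not a methylation level. Sites were read 1-based; 0 lay beyond a chromosome end and 100% were at an A. GENCODE release 44, later than that of the authors on the same assembly, gave genes. The host transcript was the longest with a support level of at most 3 and a level of at most 2, coding ones first in coding genes. Intronic means in no exon of any transcript of the gene. The members, gene lists and named genes (the 5 with the most intronic sites after FAM20C, ties by all sites) were chosen with earlier results of these data known. No test was made. Placement was tested on simulated data (350 of 350 sites correct). Shares of motifs carry 95% Wilson intervals. Scripts ran in Python 3.11.15 with pysam 0.24.0 for sequence, numpy 2.4.6 and scipy 1.17.1 for values, and matplotlib 3.10.9 for plots.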

Additional observations from a re-analysis of the deposited data

How the results depend on the processing

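Over 9 results, 32 alternatives were computed, of which 22 stayed within the interval, the spread over sites or 1.5 times the count, 9 moved and 1 reversed. A score of at least 0.7 left 3 intronic sites of FAM20C, lowered the share of its intronic DRACH motifs listed to 0.226%, raised the median distance to the nearest listed site to 146 nt and turned the difference of the median scores to 0.0643. Since that setting selects on the score itself, the sign says nothing of the difference. At that score 2 other genes, BAIAP2 and BLOC1S3, also had 3 intronic sites. Counting RAC in place of DRACH gave 92.3% of intronic sites. The listed share of intronic motifs was 5.38% in intron 2, 14.3% between its first and last site outside the FAM20C-202 exon and 4.76% for GGACT, and the exonic share for GGACT was 66.7%, which follows from the motifs counted. The canonical transcript is the same isoform and could change no value of FAM20C itself. The longest transcript of any biotype, an alternative chosen after seeing the data, is again that isoform. It left 13 intronic sites in FAM20C, a count it could not change, and 0 other genes with as many. Alternatives that could not change FAM20C are among the 22 that stayed. Leaving out a replicate was not possible because the list pools them. No paired analysis was possible because C643 WT stands alone, with no second group.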
